A study of Mus musculus with 8 samples.

Results

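The miRNAs mmu-miR-193 and mmu-miR-365 are encoded next to each other on mouse chromosome 11 and were read by probes of a mouse liver miRNA array. These 2 miRNAs, of the 567 mouse miRNAs on the array, are a pair of chromosomal neighbours chosen by their array signals and detection calls. Their signals were low in CCL4 liver and nearer to control by 8 weeks once arrays were scaled. The values that chose them are therefore given as a description, with no test. The liver came from male C57BL/6J mice that were 8 weeks old at the start and were given CCL4 in olive oil, or olive oil alone, into the peritoneum. CCL4 is a solvent that injures hepatocytes and, when given repeatedly, produces liver fibrosis. Doses were given 2 times a week up to 4 weeks and then once a week, so the livers of 6 and 8 weeks had passed to the sparser schedule. CCL4 liver had 5 arrays, of which 1 was of 4 weeks and the later weeks had 2 each, and olive oil liver had 3, with 1 for each week. The sources used here do not say whether an array held RNA of a single mouse or of several, so n counts arrays, and an SD or SE describes the spread between arrays.

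A miRNA is cut from a hairpin in a longer transcript, and its bases 2 to 8, the seed, pair with messenger RNAs that are then repressed. Neighbouring hairpins are often cut from a shared transcript, and the mouse genome holds the miR-193 and miR-365 pair as 2 copies, the other on chromosome 16. The copy on chromosome 16, which holds miR-193b, is known for its part in brown fat. The mature sequences are shown because they decide which of the copies the array could tell apart. The seed of each is in capitals, and the sequences are those of RefSeq for mouse build GRCm38.p6, 5′ to 3′, all on the plus strand. They lie at chr11:79712009-79712030 for miR-193a-3p, chr16:13449570-13449591 for miR-193b-3p, chr11:79726467-79726488 for miR-365-3p of the hairpin Mir365-2 and chr16:13453895-13453916 for miR-365-3p of the hairpin Mir365-1.
mmu-miR-193a-3p: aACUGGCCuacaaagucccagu
mmu-miR-193b-3p: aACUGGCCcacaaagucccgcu
mmu-miR-365-3p, Mir365-2: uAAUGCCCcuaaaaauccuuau
mmu-miR-365-3p, Mir365-1: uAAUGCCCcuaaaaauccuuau

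The array's mmu-miR-193 was matched to the hairpin Mir193a by its RefSeq synonym, and to the 3p arm because its probes lay after those of mmu-miR-193*, the other arm. miR-193a-3p and miR-193b-3p shared their seed and differed by 3 substitutions, U9C, A20G and G21C, counted from the 5′ end with the base of miR-193a-3p first. The 2 copies of miR-365-3p differed by 0 bases, so the mmu-miR-365 signal could come from either chromosome and could not be divided between them. Of 1679 mature mouse miRNA names in the RefSeq table, 2 carried the seed of miR-193a-3p (itself and miR-193b-3p) and 1 carried the seed of miR-365-3p.

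The hairpins are shown with the mature 3p sequence in capitals, since the members share a chromosome but not a seed. Mir193a lies at chr11:79711969-79712034 and Mir365-2 at chr11:79726400-79726511, with 14365 bp between them. Mir193b at chr16:13449523-13449601 and Mir365-1 at chr16:13453840-13453926 lie 4238 bp apart.
Mir193a: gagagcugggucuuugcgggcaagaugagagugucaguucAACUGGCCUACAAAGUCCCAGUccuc
Mir365-2: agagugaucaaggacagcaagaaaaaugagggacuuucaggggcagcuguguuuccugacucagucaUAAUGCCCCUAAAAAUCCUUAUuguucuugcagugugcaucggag
Mir193b: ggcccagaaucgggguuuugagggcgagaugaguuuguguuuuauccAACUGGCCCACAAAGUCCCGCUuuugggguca
Mir365-1: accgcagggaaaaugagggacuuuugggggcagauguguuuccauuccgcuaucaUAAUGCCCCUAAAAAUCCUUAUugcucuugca

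All 8 arrays lay on 1 slide and were scanned together. The feature extraction software called 117 to 158 of the 567 miRNAs detected per array, and 133 that were detected on at least 3 arrays were tested. The 75th percentile of signal, by which each array was divided, lay between 6.53 and 11.0 in CCL4 liver and between 4.71 and 6.48 in olive oil liver. On each olive oil array it was below the lowest detected signal (7.12, 6.26 and 7.80 at 4, 6 and 8 weeks). The divisor of a control array was thus a signal level of miRNAs not called detected. On each CCL4 array it was above the lowest detected signal. The divisors did not overlap, so the scaling itself lowered every miRNA of a CCL4 array relative to a control array, and the overall and weekly differences of miR-193 and miR-365 are also given without it. No spot was saturated (0 spots). The CCL4 array of 4 weeks stood apart, with 158 miRNAs called detected, the most of any array, and a lowest detected signal of 0.139 against 5.59 to 8.16 on the other arrays. At 4 weeks 13 of the 133 tested miRNAs were higher and 20 lower in CCL4 by more than 1 on the scaled log2 scale, against 5 and 1 at 6 weeks and 5 and 0 at 8 weeks. The first row of the slide held both arrays of 4 weeks, and the second held all arrays of 8 weeks, so that row and week cannot be told apart between those weeks.

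Both miRNAs were called detected on 8 of 8 arrays. The total signal of miR-193 in CCL4 liver was 211 at 4 weeks, 192.7 and 267 for the 6-week pair, and 450 and 326 for the 8-week pair. In olive oil liver it was 269, 228 and 274 at 4, 6 and 8 weeks. The unscaled signal of CCL4 liver was thus below the control at 4 weeks, on both sides of it at 6 weeks and above it on both arrays of 8 weeks. The software's own error of the signal was 9.01% of it on the CCL4 array of 4 weeks. After division by the 75th percentile the log2 level of miR-193 in CCL4 liver was 4.47 at 4 weeks, 4.88 and 5.15 for the 6-week pair, and 5.35 and 5.23 for the 8-week pair. The scaled log2 levels in olive oil liver were 5.72, 5.60 and 5.40 at the same weeks. On this scale all 5 CCL4 arrays lay below all 3 olive oil arrays, with the arrays of 8 weeks closest to them. The share of the 133 tested miRNAs with no overlap in this direction was 43.6%, and since the contrast chose the members nothing is read from their place in it.

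The total signal of miR-365 in CCL4 liver was 106 at 4 weeks, 88.1 and 131 for the 6-week pair, and 183 and 145 for the 8-week pair. In olive oil liver it was 109.8, 124 and 149 at 4, 6 and 8 weeks. Unscaled, the array of 4 weeks was close to its control, and the arrays of 6 weeks and of 8 weeks lay on both sides of theirs. The scaled log2 level of miR-365 in CCL4 liver was 3.48 at 4 weeks, 3.75 and 4.11 for the 6-week pair, and 4.06 and 4.06 for the 8-week pair. In olive oil liver the scaled log2 levels were 4.43, 4.72 and 4.52. Every scaled CCL4 value lay below every scaled control value, and the levels of the 8-week pair were no higher than that of the higher 6-week array. Against the control of its own week, that 6-week array stood at -0.60 and each 8-week array at -0.46. For both miRNAs, each of the 5 CCL4 arrays was below the olive oil array of its own week, as for 51.9% of the tested miRNAs. Without scaling no tested miRNA was below its control on every CCL4 array (0 of 133, a share of 0%).

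**Figure D1:**
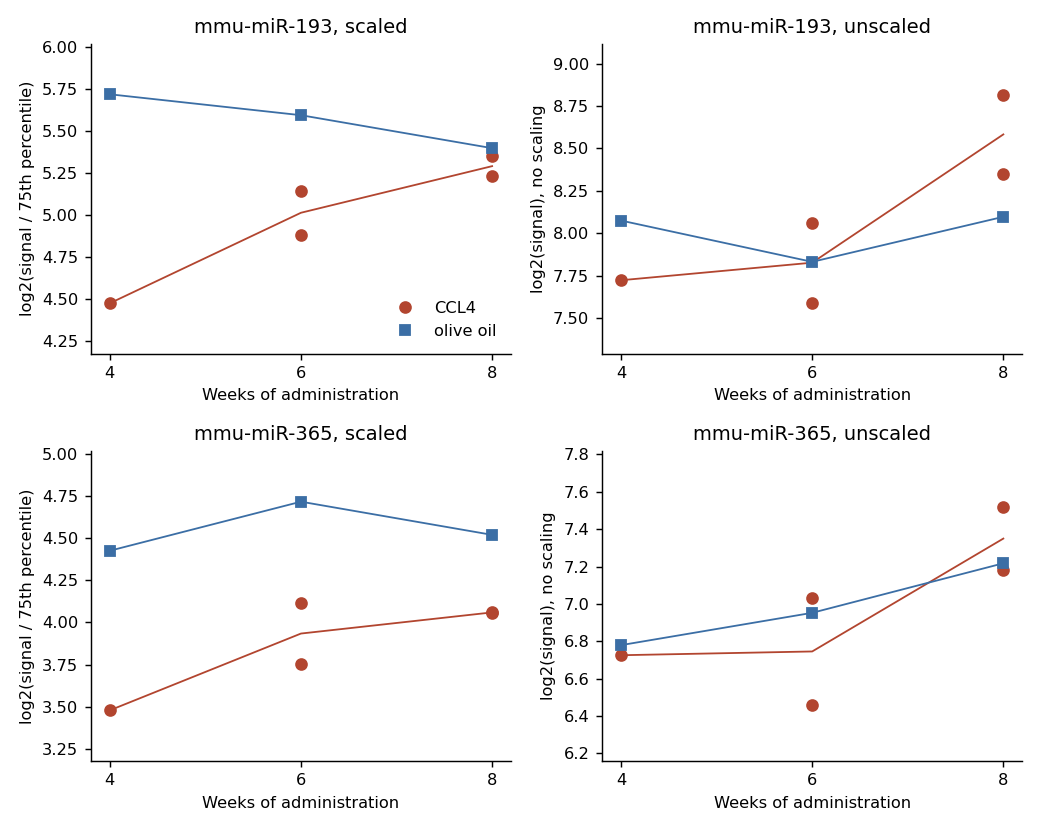
Level of miR-193 (top) and miR-365 (bottom) on each array against weeks of administration, as log2 of signal over the 75th percentile of the array (left) and log2 of unscaled signal (right), with points for single arrays and lines through the mean of each week. On the left all 5 CCL4 points lie below the 3 olive oil points in both rows, and on the right CCL4 and olive oil cross.

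Over all weeks the scaled level of miR-193 was lower in CCL4 liver by an estimate of -0.59 on the log2 scale (SE 0.199, 5 arrays against 3, limma), or 66.4% of control. Its group means were 5.02 ± 0.35 (SD, n = 5) in CCL4 and 5.57 ± 0.16 (SD, n = 3) in olive oil. The estimate for miR-365 was -0.71 (SE 0.160, the same arrays), or 61.1% of control, with group means of 3.89 ± 0.27 (SD, n = 5) and 4.55 ± 0.15 (SD, n = 3). Among the 133 tested miRNAs, ordered from the lowest estimate, miR-193 was number 24 and miR-365 number 7. Of the tested miRNAs, 47 passed an adjusted p of 0.05 as lower in CCL4 (35.3%) and 18 as higher (13.5%) by limma with Benjamini-Hochberg adjustment, and no call is counted for the members. The median difference of the 113 miRNAs detected on all arrays was itself -0.36, which leaves -0.23 for miR-193 and -0.35 for miR-365 relative to it. Without scaling the median was 0.31 and the 2 estimates were 0.079 and -0.042, so the direction of miR-193 turned and that of miR-365 came close to 0. Without the CCL4 array of 4 weeks the scaled estimates were -0.34 for miR-193 and -0.62 for miR-365. In bulk liver, fewer cells of a type and less RNA per cell cannot be told apart.

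At 4 weeks the scaled level of miR-193 in CCL4 liver was 42.2% of control, a log2 difference of -1.25. At 6 weeks it was 66.8% (-0.58), and at 8 weeks 92.8% (-0.11). The difference shrank at each step, and the last was smaller than the SD of 0.145 between CCL4 arrays of a week, pooled over the pairs of 6 and 8 weeks. For miR-365 the scaled level was 51.8% of control at 4 weeks (-0.95), 58.1% at 6 weeks (-0.78) and 72.7% at 8 weeks (-0.46). Its differences shrank in the same order, and the last was still larger than its between-array SD of 0.180. The shares of tested miRNAs with every CCL4 array of a week below control were 67.7% at 4 weeks, 72.2% at 6 weeks and 61.7% at 8 weeks. A difference that was below 0 at 4 weeks and moved towards 0 at 6 and again at 8 weeks without passing it was found for 60 of the 133 tested miRNAs (45.1%). The values of 4 weeks rest on the CCL4 array that stood apart in its detection calls, and its part in them was not tested. Each week had 1 control array, so the spread between controls of a week is unknown, and 4 weeks had no second CCL4 array.

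The median of the 113 miRNAs detected on all arrays moved in the same order, at -0.56, -0.45 and -0.14 for 4, 6 and 8 weeks. Relative to that median miR-193 stood at -0.69, -0.13 and 0.03. Relative to it miR-365 stood at -0.39, -0.33 and -0.32. The distance of miR-193 from the median thus closed, while that of miR-365 stayed similar. Counted from the lowest of the 133 differences, miR-193 was number 11, 30 and 75 at 4, 6 and 8 weeks. On the same count miR-365 was number 29, 6 and 11, so it ranked lower among the tested miRNAs in the later weeks. The gain from 4 to 8 weeks was 1.14 on the log2 scale for miR-193 and 0.49 for miR-365, against a median gain of 0.44 over the 133 tested miRNAs. In the order of gains from the highest, which dividing an array by another number leaves as it is apart from values at the floor, they were number 8 and number 57. Without scaling the weekly differences were -0.35, -0.00480 and 0.49 for miR-193. For miR-365 they were -0.054, -0.21 and 0.13, so the mean of each miRNA was above control at 8 weeks on that scale. The CCL4 signals of miR-365 at 8 weeks, 183 and 145, lay on both sides of the control's 149.

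**Figure D2:**
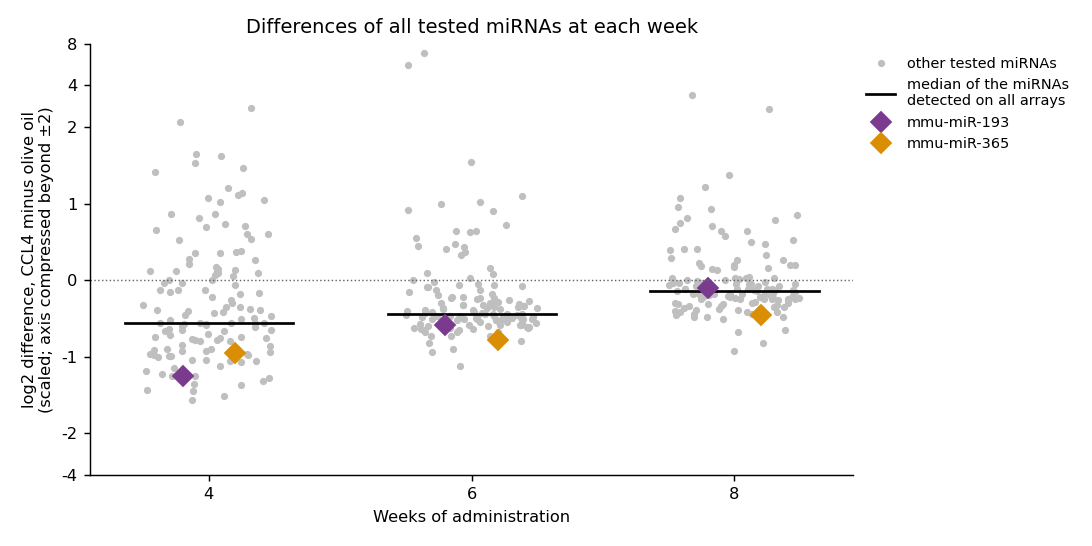
Log2 difference of CCL4 minus olive oil (scaled) at 4, 6 and 8 weeks for the 133 tested miRNAs (points spread sideways for sight), with diamonds for miR-193 and miR-365 and a line at the median of the 113 miRNAs detected on all arrays. The line rises from -0.56 to -0.14, miR-193 rises from below it to it, and miR-365 stays below it.

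The contrast of the neighbours on the same array is free of scaling, since the divisor is shared. The log2 signal of miR-365 minus that of miR-193 was -0.997 in CCL4 liver at 4 weeks, -1.13 and -1.03 for the 6-week pair, and -1.30 and -1.17 for the 8-week pair. In olive oil liver it was -1.29, -0.88 and -0.88. The contrast of CCL4 liver lay within the range of the olive oil arrays on 4 of the 5 arrays and just outside it on the other. CCL4 minus olive oil was 0.30 at 4 weeks, where miR-193 was the more reduced by a factor of 1.23. At 6 weeks it was -0.20 and at 8 weeks -0.35, where miR-365 was the more reduced by factors of 1.15 and 1.28. Each of these exceeded the SD of 0.0819 between CCL4 arrays of a week, but the olive oil array of 4 weeks lay farther than that from the other controls, and against either of them the sign at 4 weeks would turn. Over all weeks the difference in response was -0.12. It was 0.012 when the 8-week control was left out, and -0.28 without either array of 4 weeks.

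**Figure D3:**
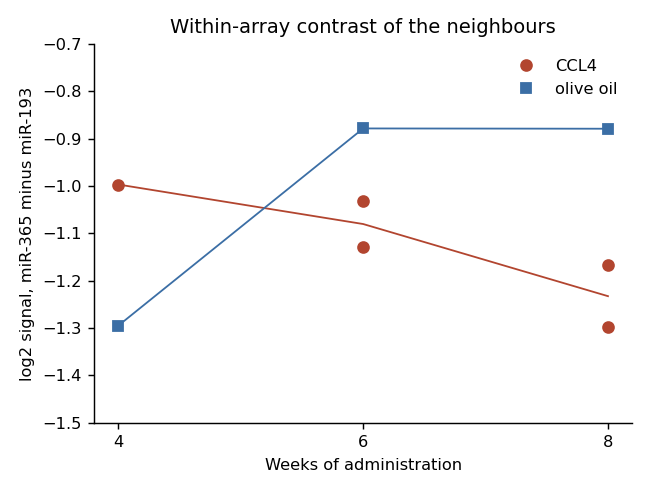
Log2 signal of miR-365 minus log2 signal of miR-193 on each array against weeks of administration, with points for single arrays and lines through weekly means. CCL4 lies above olive oil at 4 weeks and below it at 6 and 8 weeks, and the olive oil array of 4 weeks stands at -1.29 against -0.88 for the other controls.

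Each miRNA was read by 2 probes with 10 spots each, and every spot of all 4 probes was well above background on every array. The probes of miR-193 ended at the same base in build mm9 and differed by 1 base in length (chr11:79525516-79525532 and chr11:79525517-79525532). The longer of them carried 88.1% to 88.7% of the signal, so the miR-193 level rests largely on it. The shorter gave scaled log2 differences of -1.22, -0.60 and -0.08 for 4, 6 and 8 weeks, and the longer gave -1.25, -0.58 and -0.11. The probes of miR-365 (chr11:79539969-79539990 and chr11:79539970-79539990) shared the signal more evenly, with 54.8% to 57.0% in the longer. The shorter gave -0.93, -0.75 and -0.53, and the longer gave -0.96, -0.81 and -0.41. Probes of a miRNA read the same RNA and are not replicates. The probes of the neighbours lay 14436 bp apart in build mm9.

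The relatives of the members could not be compared. mmu-miR-193b, which shares the seed of miR-193, was detected on 0 of 8 arrays, with signals from 2.50 to 5.88 (median 3.76) in CCL4 liver and from 1.42 to 1.81 in olive oil liver. None of its spots was well above background (0 of 160), so no fold is given. mmu-miR-193*, the other arm of the Mir193a hairpin, was also detected on 0 of 8 arrays, with all signals below 0. No other array entry carried the name miR-193 or miR-365.

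The level of miR-365 followed that of miR-193 over the 8 arrays with a Pearson r of 0.915 scaled and 0.903 unscaled, as a description of arrays that share both treatments. Among the 112 other miRNAs detected on all arrays, miR-365 was number 36 in likeness to miR-193, and miR-193 was number 40 in likeness to miR-365. The median r over all pairs was 0.414 scaled and 0.792 unscaled. The pattern most like that of miR-193 was that of miR-720 (r = 0.989), an entry now regarded as a fragment of a transfer RNA, with weekly differences of -1.37, -0.61 and -0.14. Next came miR-29c (0.961), of a family known to target collagen messages, miR-192 (0.959), which is abundant in hepatocytes, let-7g (0.956) and miR-425 (0.951). The patterns most like that of miR-365 were those of miR-151-5p (0.989), miR-22 (0.987), let-7a (0.984), miR-29a (0.983) and miR-101b (0.982). The weekly differences of miR-22 were -0.99, -0.80 and -0.34, near those of miR-365. The 5 nearest of one member shared no miRNA with the 5 nearest of the other.

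Other tested miRNAs with probes within 10 kb of each other on a chromosome gave 48 pairs of 62 miRNAs. Some of these pairs are arms of the same hairpin, and miR-193 and miR-365 themselves lie beyond this window, with probes 14436 bp apart. Positions are those of the array annotation, so a miRNA encoded at several loci was paired only at its annotated place. The median absolute difference in response within a pair was 0.149 on the log2 scale (0.00144 to 3.65), and 20 of the 48 pairs differed by less than the 0.121 between miR-193 and miR-365. In 42 of the 48 pairs both miRNAs had estimates of the same sign on the scaled values, and in 45 without scaling. The same share over all pairs of tested miRNAs was not computed. The median estimate was itself away from 0, at -0.32 scaled over the tested miRNAs and 0.31 unscaled over those detected on all arrays. Nothing about neighbours is therefore read from these counts. The closest pairs in response were let-7e with miR-99b (0.00144), miR-30e with its other arm miR-30e* (0.00493) and miR-362-3p with miR-500 (0.0101). The most unlike were miR-379 with miR-494 (3.65, where miR-379 stood at the floor on 3 arrays, both 4-week ones and the 6-week control), miR-18a with miR-92a (0.890) and miR-18a with miR-19b (0.733). Over all 8778 pairs of tested miRNAs the median was 0.406, and 1533 differed by less than 0.121.

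Over all tested miRNAs 35.3% were called lower in CCL4 liver and 13.5% higher. Among hepatocyte miRNAs, 4 of 5 tested were lower and 1 was higher (limma with Benjamini-Hochberg adjustment). The lower ones had log2 differences of -0.78 for miR-122, the most abundant miRNA of hepatocytes (adjusted p = 0.0118), -0.66 for miR-192 (adjusted p = 0.0219), -0.60 for miR-194 and -0.58 for miR-148a (adjusted p = 0.0232 for each). The higher one was miR-802, with 0.68 (adjusted p = 0.0232). Without scaling 0 miRNAs passed as lower, so none of these 4 calls held there. The list's median was -0.60, against -0.32 over all tested miRNAs, and its summed scaled level was 2421 to 4283 in CCL4 liver and 5440 to 6076 in olive oil liver. Its unscaled sums overlapped, at 22049 to 42269 and 28592 to 35272. The 4 lower miRNAs of the list thus moved in the direction of miR-193 and miR-365 on the scaled values, and miR-802 did not. The sums rest mostly on miR-122, with a mean scaled log2 level of 12.26 in olive oil liver, against 9.11 for miR-192. The part of the hepatocyte list in the levels of miR-193 and miR-365 was not tested.

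Markers of other cells of liver and blood were set beside them in the same way, against the same overall shares (35.3% lower and 13.5% higher). The 3 erythroid miRNAs (miR-451, miR-144 and miR-486) passed in neither direction, with a median of -0.55. The main miRNA of red cells, miR-451, differed by -1.35, -0.51 and -0.01 at 4, 6 and 8 weeks on the scaled values, near the weekly differences of miR-193. The erythroid sums overlapped, at 378 to 961 in CCL4 and 537 to 1225 in olive oil scaled, and at 2503 to 10579 and 2527 to 6261 unscaled. Of 2 endothelial miRNAs 0 passed, with a median of -0.34. Their scaled sums did not overlap (136 to 205 in CCL4 and 213 to 225 in olive oil), and their unscaled sums did (888 to 2034 and 1060.1 to 1422).

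Of 5 tested mesenchymal and stellate miRNAs, 4 were higher and 0 lower, with a median of 0.74. The shares over all tested miRNAs were 13.5% and 35.3%. Those 4 are not separate markers. Probes of miR-199b lay 19 bp from those of miR-199a-5p and 5543 bp from those of miR-214, and miR-199b* nearly shares the sequence of miR-199a-5p. The sums of the list did not overlap on either scale, at 30.6 to 50.3 in CCL4 and 22.4 to 29.4 in olive oil scaled, and at 199.8 to 554 and 105 to 191 unscaled. Of 4 tested leukocyte miRNAs 1 was lower, miR-146a with -0.87 (adjusted p = 0.0118 by limma, a call not made without scaling). The other 3 did not pass, at 0.25 for miR-223, the main miRNA of neutrophils, -0.03 for miR-142-3p and -0.11 for miR-142-5p. At 4 weeks miR-223 stood at 1.14. The leukocyte median was -0.07, above the -0.32 of all tested miRNAs, and the sums overlapped, at 50.4 to 145 and 72.2 to 107 scaled, and at 329 to 1375 and 339.7 to 596 unscaled. Of 2 tested biliary epithelial miRNAs 1 was higher, miR-200b with 0.45 (adjusted p = 0.0291 by limma), and the median was 0.35. The biliary sums were 4.77 to 7.34 against 4.65 to 4.93 scaled, and 31.0 to 80.8 against 21.8 to 31.8 unscaled. All these sums took in every listed miRNA on the array, also those not tested, so they hold some signal that was not called detected. The mesenchymal marker miR-145, the leukocyte marker miR-150 and the biliary markers miR-200c, miR-141 and miR-429 were detected on no array. Whether any of these cells had a part in the levels of miR-193 and miR-365 was not tested.

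The members' copy on chromosome 16 is known from brown and beige fat, and other miRNAs of that setting were set beside them. Of 9 on the list, 4 were tested, among them miR-365 itself, for which no call is counted here. Of the other 3, miR-455 was lower on the scaled values (log2 difference -1.10, adjusted p = 0.0155 by limma), a call not made without scaling, and miR-27b (-0.36) and miR-378 (-0.33) did not pass. The share called lower over all tested miRNAs was 35.3%. miR-193b, miR-133a and miR-196a were detected on no array, and miR-133b and miR-155 on 1 each. The median of the 3 tested miRNAs other than miR-365 was -0.36, against -0.32 over all tested miRNAs.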

How the data were processed

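Liver RNA of 5 CCL4 and 3 olive oil samples was labelled with a single dye and hybridised to Agilent miRNA arrays. Per the file headers, the deposited intensity values came from Feature Extraction 10.5.1.1, with local background removed and the probes of a miRNA added up, and no scaling was applied between arrays. The authors' processed log2 table equalled log2 of these signals, with signals under 1 set to 1, to within 1.107e-06 over 4536 values.

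Signals were divided by the array's 75th percentile over 567 mouse miRNAs, raised to 0.01 where lower, and expressed as log2. The methods state the floor first, which was run as an alternative. Tests used limma 3.58.1 in R 4.3.3 with treatment and week as factors on 133 miRNAs detected on at least 3 arrays, with Benjamini-Hochberg adjustment and a threshold of 0.05. They were checked on simulated data. Weekly values are differences of means.

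The members, lists and alternatives were chosen with earlier results of these data known. Named miRNAs were the members, their relatives by name, the 5 most correlated with each over 8 arrays, the 3 closest and 3 most unlike neighbour pairs, and list members past the threshold. List members that did not pass or were not detected are also named, chosen after their values were seen. Samples were grouped by the labels. Their number limits the precision. Human biopsies, quantitative PCR and cell line experiments were not analysed here.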

Additional observations from a re-analysis of the deposited data

How the results depend on the processing

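Over the 13 results recomputed, 169 alternative values stayed close to the value given, 54 moved and 6 turned direction. Close meant within the SD between CCL4 arrays of a week, or within a set ratio for counts, where 69 lower miRNAs against 47 passed as close. Part of the 169 could not move, so their number does not measure stability. The floors do not reach the members, a divisor leaves the difference in response unchanged, and leaving out an array leaves other weeks unchanged. Without scaling, 34 miRNAs were higher and 0 lower (51 and 0 at an unadjusted p under 0.05), miR-193 was 0.079 over all weeks, and -0.35, -0.00480 and 0.49 at 4, 6 and 8 weeks, and miR-365 was -0.042, and -0.054, -0.21 and 0.13. The gains from 4 to 8 weeks were then 0.84 and 0.19. With normexp, 10 were higher and 0 lower (25 and 0 unadjusted), miR-193 was 0.035, and -0.27, -0.062 and 0.36 by week, miR-365 was -0.11, and -0.15, -0.17 and -0.025, and the gains were 0.62 and 0.12. Scaling by the 75th percentile of miRNAs detected on all arrays left 10 lower, with miR-193 at -0.39 (-1.03 and -0.12 at 4 and 6 weeks) and miR-365 at -0.51 (-0.73 and -0.32), and gains of 0.84 and 0.19. Scaling by their median gave gains of 0.90 and 0.25. Quantile normalization left 18 lower, with miR-193 at -0.33 (-0.81 and -0.22 at 4 and 6 weeks, gain 0.71), miR-365 at -0.52 at 6 weeks, and the difference in response at -0.33. With no filter on detection 5 were higher and 0 lower (27 and 65 unadjusted), with no week term 11 and 16, and with the methods' t-test 10 and 23 after Benjamini-Hochberg (13 and 61 before it). A change of divisor moved both members by the same amount, since all miRNAs of an array share it. Why the divisors differed between treatments was not tested, nor was the cause of the other shifts.

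Leaving out each array in turn gave 8 to 14 higher and 5 to 60 lower miRNAs, -0.87 to -0.34 for miR-193, -0.85 to -0.62 for miR-365 and -0.28 to 0.012 for their difference in response, which turned direction without the olive oil array of 8 weeks. Lower calls fell to 5 when the 6-week control was left out, to 7 without either array of 4 weeks and to 30 without CCL4 replicate 1 of 6 weeks. Higher calls fell to 8 when that control was left out and to 11 without the 8-week control. For single weeks the ranges were -0.71 to -0.45 and -0.17 to -0.046 for miR-193 at 6 and 8 weeks, -0.96 to -0.60 and -0.46 to -0.46 for miR-365, and the gains were 1.08 to 1.20 and 0.48 to 0.49. Neither member could be given at 4 weeks without an array of 4 weeks. A weekly range varies only with the CCL4 arrays of that week, since its control could not be left out. The gains could likewise not be given without either array of 4 weeks or the 8-week control. Leaving out a 6-week array cannot change them, so their ranges vary only with the CCL4 arrays of 8 weeks.

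The replicate block gave -0.67 for miR-193 and -0.79 for miR-365, with 12 higher and 54 lower. The numbers are only names here, with a correlation of deviations of 0.11 over the pair of groups that share them. Chosen after seeing the data, slide row as a covariate gave -0.63 for miR-193 and -0.76 for miR-365, with 14 higher and 46 lower. These equal the values without CCL4 replicate 2 of 6 weeks, the only array in another row than the rest of its week. The row term thus repeats leaving out that array and cannot test slide row. Also chosen after seeing the data, a 20 kb window gave 53 neighbour pairs with a median difference of 0.141, of which 24 were closer than the members. The relatives gave no value under any alternative.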
